A study of Mus musculus with 12 samples.

Results

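The transcripts of 10 chemokine ligands, Ccl2, Ccl3, Ccl4, Ccl5, Ccl6, Ccl9, Ccl12, Cxcl10, Cxcl13 and Cxcl16, were followed in the spinal cord of mice that carry or lack a mutant human SOD1 transgene and that have or lack Plekhg5. They were taken by gene symbol, and all 10 were found among the 45906 genes of the deposited count table. Poly-A RNA of whole spinal cord from 7-month-old mice was sequenced in 12 libraries, 3 per genotype. The genotypes were wild type (WT, Plekhg5+/+ without the transgene), Plekhg5-/- without the transgene, SOD1-G93A (Plekhg5+/+ with the transgene), and Plekhg5-/- SOD1-G93A, which combines both. Plekhg5 is an exchange factor that activates Rab26 and takes part in neuronal autophagy, and SOD1-G93A mice express a mutant human superoxide dismutase and develop an amyotrophic lateral sclerosis-like loss of motoneurons. The transgene was the slowly progressing "low copy" line, and the background of all 4 genotypes was C57BL/6. The sources used here do not name the Plekhg5 allele or say whether mice were littermates. The paper states that sex was not considered and that the sexes were spread equally over its experiments.

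Chemokines are small secreted proteins that bind G protein-coupled receptors on leukocytes and steer their movement. In the central nervous system microglia and astrocytes are known sources of them, and the receptors sit on microglia and on monocytes, lymphocytes and neutrophils that can enter from blood. The CC ligands Ccl2 and Ccl12 act through Ccr2 on monocytes. Ccl3 and Ccl5 act on Ccr1, as do Ccl6 and Ccl9, and Ccl4 is a close relative of Ccl3. Cxcl10 is an interferon-induced ligand of Cxcr3, Cxcl13 attracts B cells through Cxcr5, and Cxcl16 is a membrane-bound or shed ligand of Cxcr6.

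The libraries held between 30415643 and 38743628 counts, and levels are given as CPM, the count divided by the library's total in units of 1000000 counts and scaled with TMM factors, which correct for differences in library composition. Plekhg5 was at 22.9 ± 3.08 CPM (SD, n = 3) in WT and at 3.99 ± 0.712 CPM in Plekhg5-/- libraries, and human SOD1 was at 4993 ± 612 CPM in SOD1-G93A and at 0.959 ± 0.750 CPM in WT. Both therefore followed the labels, with a residue of Plekhg5 reads in all Plekhg5-/- libraries. All 7 spinal cord neuron markers, among them Snap25 and the motoneuron gene Chat, were detected. Library SOD1-G93A replicate 1 stood apart in microglial and astrocyte genes, with a summed level of 13 microglial markers of 1705 CPM against 961 and 1013 CPM in the other SOD1-G93A libraries. Transcripts of the Y chromosome were present in 3 WT, 2 Plekhg5-/-, 2 SOD1-G93A and 1 Plekhg5-/- SOD1-G93A libraries, so the sexes were not balanced over genotypes, and with this as a covariate the same 7 chemokines described as called below were called.

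Of the 10 chemokines, 8 lie on mouse chromosome 11 and Cxcl10 and Cxcl13 lie on chromosome 5 (coordinates of the GRCm38.p6 build, as the count table gives them). Ccl2 (chr11:82035577-82037452, + strand) and Ccl12 (chr11:82101845-82103399, + strand) lie near each other with Ccl7 and Ccl11 between them, and Ccl5 (chr11:83525778-83530518), Ccl9 (chr11:83572917-83578636), Ccl6 (chr11:83587886-83593087) and Ccl3 (chr11:83647843-83649378) lie in this order on the - strand. Ccl4 (chr11:83648624-83664683, + strand) overlaps Ccl3 on the opposite strand, and the counting was strand-specific. Cxcl16 lies apart at chr11:70454389-70459984 (- strand), Cxcl10 at chr5:92346638-92348889 (- strand) and Cxcl13 at chr5:95956939-95961068 (+ strand). Reads that map to several places were shared out in fractions by the authors, which left Ccl9 with non-whole counts in 4 libraries and Ccl6 and Cxcl16 in 1 library each, so these 3 genes share a few reads with similar sequence elsewhere.

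Promoter sequence was taken from RefSeq (GRCm38.p6) for the 6 chemokines with an entry, Ccl3, Ccl6, Ccl9, Ccl12, Cxcl10 and Cxcl13. The 250 bases before the transcription start are printed for 4 of them to show how differently these co-measured genes are built upstream. Capitals mark matches, on either strand, to the kappa-B consensus bound by NF-kappa-B, to GAAANNGAAA, the core of the interferon-stimulated element, and to TATAAA, the TATA box. All are written 5′ to 3′ on the gene's own strand, Cxcl10 from chr5:92348890-92349139 (- strand), Ccl3 from chr11:83649379-83649628 (- strand), Ccl9 from chr11:83578637-83578886 (- strand) and Ccl12 from chr11:82101595-82101844 (+ strand).
Cxcl10: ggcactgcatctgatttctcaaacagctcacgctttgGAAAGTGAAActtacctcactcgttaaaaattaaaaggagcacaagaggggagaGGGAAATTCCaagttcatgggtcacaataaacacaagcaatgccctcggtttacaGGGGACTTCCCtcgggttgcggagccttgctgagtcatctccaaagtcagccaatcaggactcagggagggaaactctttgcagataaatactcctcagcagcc
Ccl3: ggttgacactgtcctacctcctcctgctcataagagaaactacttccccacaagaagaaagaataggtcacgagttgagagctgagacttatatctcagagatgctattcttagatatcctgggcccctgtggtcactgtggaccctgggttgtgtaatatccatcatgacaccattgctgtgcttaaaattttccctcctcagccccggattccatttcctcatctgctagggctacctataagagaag
Ccl9: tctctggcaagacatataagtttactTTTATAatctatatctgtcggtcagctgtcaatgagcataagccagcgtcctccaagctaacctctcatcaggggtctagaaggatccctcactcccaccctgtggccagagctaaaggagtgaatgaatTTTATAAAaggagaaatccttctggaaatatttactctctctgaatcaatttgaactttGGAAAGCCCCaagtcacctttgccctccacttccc
Ccl12: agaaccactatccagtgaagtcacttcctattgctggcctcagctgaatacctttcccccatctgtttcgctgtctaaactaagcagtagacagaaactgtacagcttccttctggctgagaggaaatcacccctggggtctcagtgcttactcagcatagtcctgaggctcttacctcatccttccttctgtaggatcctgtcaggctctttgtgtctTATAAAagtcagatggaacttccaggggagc
The Cxcl10 window held the interferon element core from 213 to 204 bases before the start and kappa-B matches from 159 to 150 and from 104 to 94 bases before it, the latter being overlapping matches on both strands. A kappa-B match of Ccl9 lay from 35 to 26 bases before the start, and the TATA box of Ccl12 from 31 to 26 bases before it. No match was found in the Ccl3 window. Over the 32536 different windows of that length in the table, 7.28% held a kappa-B match, 2.98% the interferon core and 12.3% a TATA box, against 2, 1 and 3 of the 6 chemokine windows.

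The level of each chemokine in each library is shown in the plot of CPM by genotype.

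**Figure D1:**
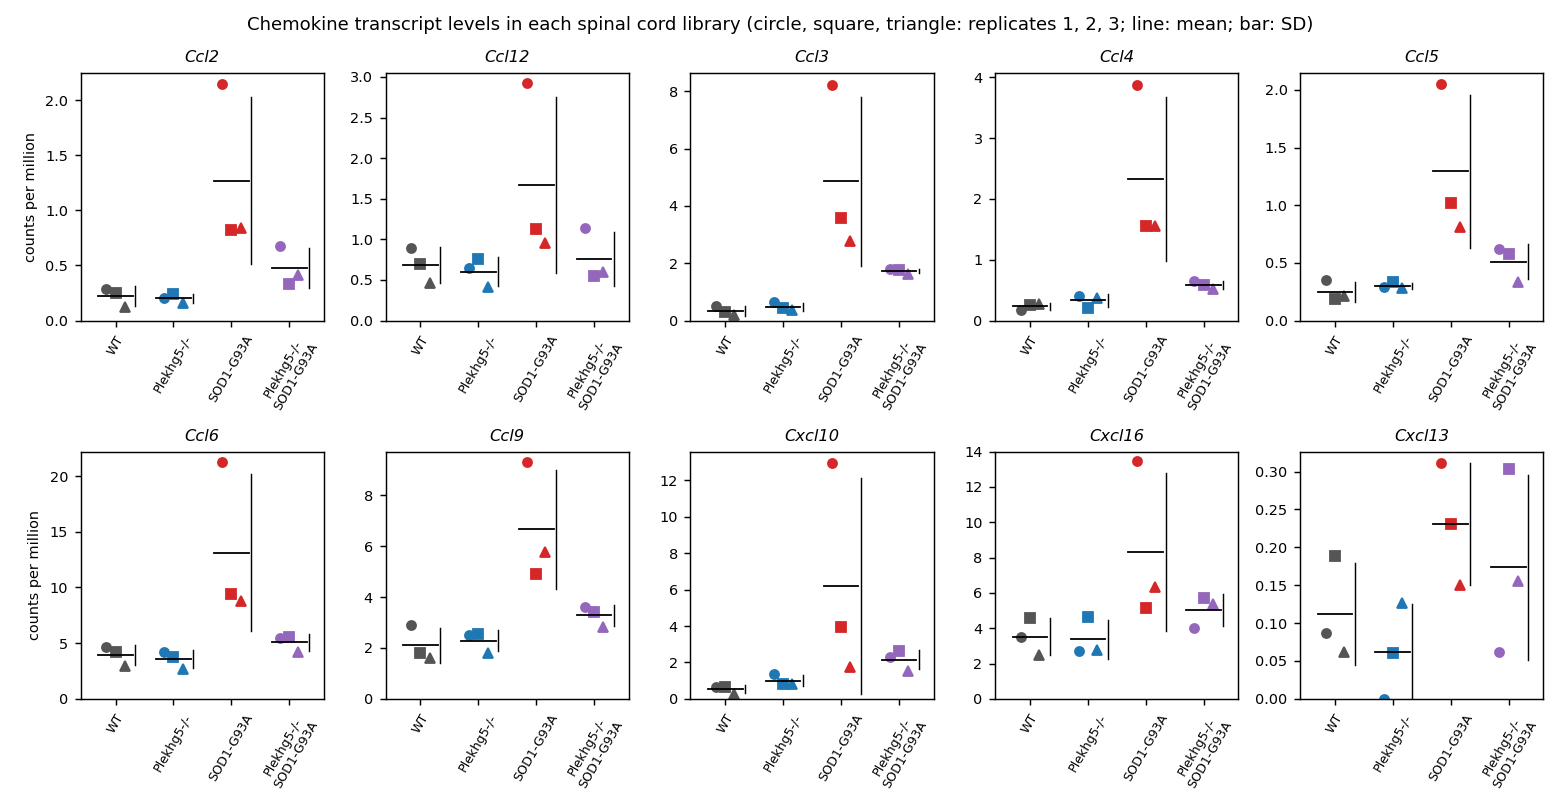
Level of the 10 chemokines in CPM (vertical axis, linear, from 0, scaled per gene) in the 4 genotypes (horizontal axis). Each symbol is 1 library, the line is the mean and the bar the SD of 3 libraries. SOD1-G93A replicate 1 (red circle) was the highest SOD1-G93A library for every gene.

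With Plekhg5 intact, the SOD1-G93A spinal cord contained more chemokine RNA than WT. Of the 9 chemokines with enough counts to be tested, 7 were higher (Ccl2, Ccl3, Ccl4, Ccl5, Ccl6, Ccl9 and Cxcl10) at an adjusted p under 0.05 (edgeR quasi-likelihood test, adjusted over 20155 genes), none was lower, and Ccl12 and Cxcl16 did not pass. Over all tested genes 2.09% were called higher and 0.377% lower. In all 9, every SOD1-G93A library lay above every WT library, which held for 11.6% of all genes. The median log2 fold change of the 9 was 2.34, beside -0.00 over all genes. Cxcl13 was too low to test. Ccl2, Ccl4 and Ccl5 had at most 12 counts in any WT library and passed the filter on low counts through libraries with the transgene, so the counts over the 9 are a description and no support.

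Ccl2, the main attractant of Ccr2-bearing monocytes, was at 0.290, 0.252 and 0.122 CPM in the WT libraries and at 2.14, 0.825 and 0.840 CPM in the SOD1-G93A libraries (counts of 4 to 10 against 25 to 69). The groups did not overlap, and the log2 fold change was 2.50 ± 0.45 (SE, adjusted p = 0.0194). Ccl12, a second Ccr2 ligand of the mouse, stood at 0.899, 0.692 and 0.459 CPM in WT and at 2.92, 1.12 and 0.960 CPM in SOD1-G93A. Here the upper 2 WT libraries came close to the lower 2 SOD1-G93A libraries, and the log2 fold change of 1.28 ± 0.44 did not pass (adjusted p = 0.142).

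The largest log2 fold changes among the 9 were those of Ccl3, Cxcl10 and Ccl4. Ccl3, the inflammatory ligand of Ccr1 also known as MIP-1 alpha, was at 0.522, 0.283 and 0.184 CPM in WT and at 8.23, 3.56 and 2.79 CPM in SOD1-G93A. Its groups did not overlap, with a log2 fold change of 3.86 ± 0.44 (adjusted p = 0.00750). Ccl4, or MIP-1 beta, read at 0.174, 0.252 and 0.276 CPM in WT and 3.88, 1.55 and 1.56 CPM in SOD1-G93A. Its log2 fold change was 3.30 ± 0.41 (adjusted p = 0.0103). Ccl5, or RANTES, an attractant of T cells and monocytes, rose from 0.348, 0.189 and 0.214 CPM to 2.05, 1.02 and 0.810 CPM (log2 fold change 2.34 ± 0.39, adjusted p = 0.0146).

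Ccl6 and Ccl9, rodent CC ligands of Ccr1 made by myeloid cells, had the highest counts in WT among the CC ligands of the 10. Ccl6 was at 4.67, 4.24 and 2.94 CPM in WT and at 21.3, 9.37 and 8.76 CPM in SOD1-G93A, a log2 fold change of 1.73 ± 0.32 (adjusted p = 0.0203). Ccl9 was at 2.90, 1.80 and 1.59 CPM in WT and at 9.32, 4.90 and 5.76 CPM in SOD1-G93A (log2 fold change 1.66 ± 0.27, adjusted p = 0.0125). For both, even the lowest SOD1-G93A library was well above the highest WT library.

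Cxcl10 had the widest spread between SOD1-G93A mice. It was at 0.667, 0.661 and 0.276 CPM in WT and at 13, 3.93 and 1.74 CPM in SOD1-G93A, where the highest library exceeded the lowest 7.45-fold. The log2 fold change was 3.53 ± 0.68 (adjusted p = 0.0266). Cxcl16 measured 3.51, 4.56 and 2.48 CPM in WT and 13.4, 5.15 and 6.33 CPM in SOD1-G93A, with only a narrow gap between the groups (log2 fold change 1.24 ± 0.35, adjusted p = 0.0884). Cxcl13 was represented by 3, 6 and 2 counts in WT, 0, 2 and 4 in Plekhg5-/-, 10, 7 and 5 in SOD1-G93A and 2, 10 and 6 in Plekhg5-/- SOD1-G93A. These counts overlapped between genotypes, so a difference in Cxcl13 was not detectable at this depth.

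**Figure D2:**
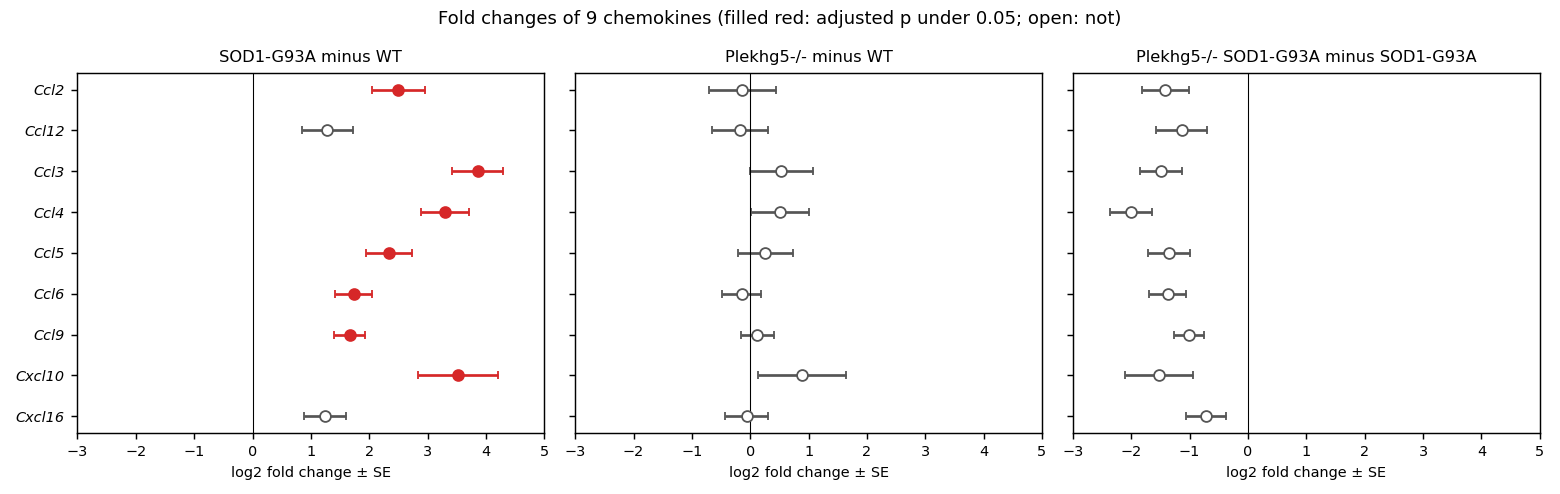
Log2 fold change (horizontal axis, ± SE) of the 9 tested chemokines for 3 comparisons, with filled red symbols for an adjusted p under 0.05. For SOD1-G93A against WT 7 symbols are filled (1.66 to 3.86), none for Plekhg5-/- against WT (-0.18 to 0.89), and none for Plekhg5-/- SOD1-G93A against SOD1-G93A, where all 9 values are negative (-2.00 to -0.72).

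The 7 calls depended on which libraries shared the fit, whereas the direction did not. Without WT replicate 2 none of the 9 passed and 2 genes passed in all (adjusted p between 0.0664 and 0.124 for the 7), and without WT replicate 1 only Ccl3 remained (adjusted p = 0.0306), with 4 genes passing in all. With only the WT and SOD1-G93A libraries in the fit the count was again 0 of 9, with 3 genes in all, while DESeq2 called 8 of 9, whether or not a prior shrank the fold changes, and also called more of all genes (6.12% with a prior and 5.91% without, in either direction). Without SOD1-G93A replicate 1, the highest library, the same 7 were called, but the log2 fold changes were smaller, at 3.24 for Ccl3, 2.39 for Cxcl10, 1.20 for Ccl6 and 0.60 for Ccl12. All 9 fold changes were positive under each of these alternatives, as the plot of adjusted p-values over all alternatives shows for the calls.

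**Figure D3:**
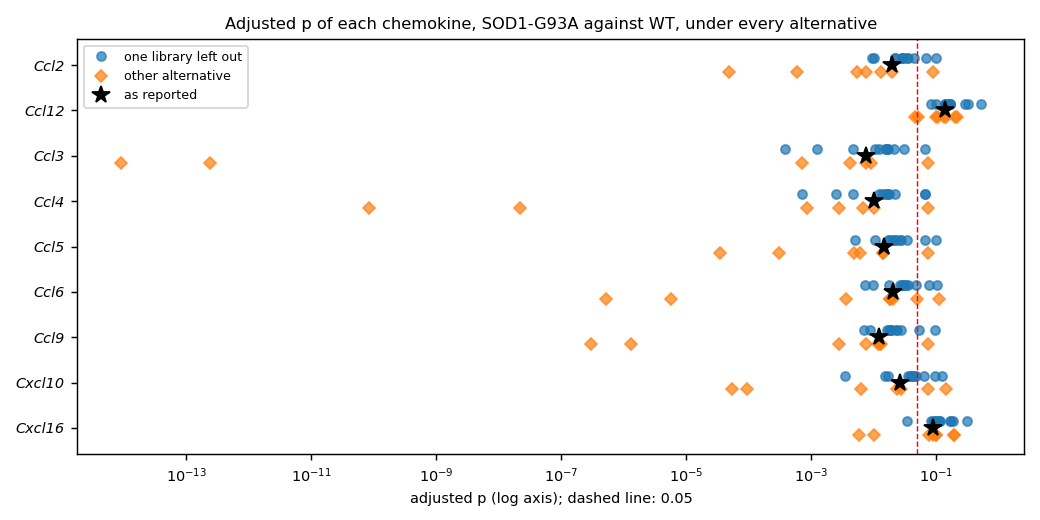
Adjusted p (horizontal log axis) of the 9 tested chemokines for SOD1-G93A against WT as reported (stars), with 1 library left out (blue circles) and under other fits (orange diamonds, the leftmost being DESeq2). The dashed line is the threshold of 0.05. The stars of 7 genes lie left of it and each of these 7 has symbols on its right side, while the stars of Ccl12 and Cxcl16 lie to the right.

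Because length differs between the transcripts, levels of different chemokines were compared per kilobase of exon (RPKM). In WT, Ccl6 (2.75 ± 0.627, SD, n = 3) and Cxcl16 (1.94 ± 0.575) were highest, followed by Ccl12 (1.28 ± 0.410), Ccl9 (0.697 ± 0.233), Cxcl10 (0.485 ± 0.204), Ccl5 (0.471 ± 0.161), Ccl3 (0.417 ± 0.220), Ccl2 (0.275 ± 0.109), Ccl4 (0.265 ± 0.0602) and Cxcl13 (0.0967 ± 0.0581). The steps from Ccl6 to Cxcl16, to Ccl12 and to Ccl9, and from Ccl4 to Cxcl13, were larger than the SD of either neighbour, whereas neighbours from Ccl9 to Ccl4 did not differ beyond their spread. In SOD1-G93A, Ccl6 remained first at 9.15 ± 4.91 RPKM, but Ccl3 (6.15 ± 3.73) and Cxcl10 (5.64 ± 5.40) came next, ahead of Cxcl16 (4.58 ± 2.48), and no neighbours among these 4 differed beyond their spread. Thus by group means Ccl3 and Cxcl10, which were among the low chemokines of the WT cord, were among the more abundant ones with the transgene. For Cxcl10 the mean rested on replicate 1 (13 CPM, against 3.93 and 1.74 CPM in replicates 2 and 3). Its higher place was therefore not shared by every SOD1-G93A library.

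In mice without the transgene, loss of Plekhg5 was not accompanied by a detectable change in any chemokine. None of the 9 passed with edgeR or DESeq2, and none had an unadjusted p under 0.05 with edgeR. Over all genes 0.0298% were called in either direction by edgeR, 0.144% by DESeq2 with a prior and 0.153% without it, and 5.32% had an unadjusted p under 0.05. The log2 fold changes lay between -0.18 and 0.89. The highest was that of Cxcl10, which was at 1.35, 0.813 and 0.820 CPM in Plekhg5-/-, with all 3 libraries above the 3 WT libraries (log2 fold change 0.89 ± 0.76, adjusted p = 0.997). Such a separation was found upwards in 4.71% of all genes.

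In mice with the transgene, all 9 tested chemokines had lower values without Plekhg5 than with it, but no difference passed the test. The log2 fold changes of Plekhg5-/- SOD1-G93A against SOD1-G93A ran from -2.0 for Ccl4 to -0.72 for Cxcl16, with a median of -1.38 beside -0.01 over all genes, of which 52.5% were negative. No chemokine was called by edgeR (adjusted p of 0.220 to 0.578), as were 0.0198% of all genes in the lower direction. At an unadjusted p under 0.05 there were 8 of 9, against 8.64% of all genes. In 6 of the 9 (Ccl2, Ccl3, Ccl4, Ccl5, Ccl6 and Ccl9) every Plekhg5-/- SOD1-G93A library lay below every SOD1-G93A library, as in 10% of all genes. Calls differed between tools. DESeq2 called 6 with a prior on fold changes, the setting of the study (the 6 genes just named), and 3 without it (Ccl3, Ccl4 and Ccl6), where it gave no adjusted p for Ccl2 and Ccl5. Over all genes it called 0.587% with a prior and 0.424% without it, in either direction.

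Ccl4 showed the largest difference, with 0.648, 0.577 and 0.518 CPM in Plekhg5-/- SOD1-G93A against 3.88, 1.55 and 1.56 CPM in SOD1-G93A (log2 fold change -2.00 ± 0.36, adjusted p = 0.220). Ccl3 was at 1.79, 1.76 and 1.63 CPM in the double mutants, a coefficient of variation of 4.86% against 60.6% in SOD1-G93A (log2 fold change -1.49 ± 0.36, adjusted p = 0.402). The double mutants were thus clear of the lowest SOD1-G93A library at 2.79 CPM. Their close grouping rests on 58, 58 and 63 counts. At such counts counting error alone is larger than this spread, so the grouping is not read as a property of the genotype. Ccl6 was at 5.43, 5.59 and 4.20 CPM (log2 fold change -1.38 ± 0.32) and Ccl9 at 3.62, 3.40 and 2.84 CPM (-1.02 ± 0.26), both at an adjusted p of 0.402.

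Ccl2, at 0.678, 0.334 and 0.414 CPM in the double mutants, and Ccl5, at 0.617, 0.577 and 0.337 CPM, came closer to their lowest SOD1-G93A values of 0.825 and 0.810 CPM without reaching them. Their log2 fold changes were -1.42 ± 0.40 and -1.35 ± 0.35, each with an adjusted p of 0.402. The remaining 3 overlapped with SOD1-G93A. Cxcl10 was at 2.31, 2.61 and 1.55 CPM, around the lowest SOD1-G93A library (log2 fold change -1.53 ± 0.58, adjusted p = 0.523). Ccl12 read 1.14, 0.546 and 0.596 CPM (-1.14 ± 0.43, adjusted p = 0.517), and Cxcl16 read 4.01, 5.69 and 5.36 CPM (-0.72 ± 0.34, adjusted p = 0.578).

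The size of this difference depended on SOD1-G93A replicate 1. Without it the median log2 fold change of the 9 moved from -1.38 to -0.81, and single values moved to -1.42 for Ccl4, -0.88 for Ccl3, -0.84 for Ccl6, -0.39 for Cxcl10 and -0.19 for Cxcl16, all still negative and none called. The mean of the double mutants lay between those of WT and SOD1-G93A for all 10 chemokines. It came to 24.9% of the SOD1-G93A mean for Ccl4, 34.8% for Cxcl10, 35.5% for Ccl3, 37.5% for Ccl2, 38.6% for Ccl6, 39.4% for Ccl5, 45.6% for Ccl12, 49.4% for Ccl9, 60.4% for Cxcl16 and 75.3% for Cxcl13. These percentages include SOD1-G93A replicate 1 in the mean and depend on it as the fold changes do. The value for Cxcl13 rests on 2 to 10 counts per library.

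Within the Plekhg5-/- background, the transgene was accompanied by smaller differences of the same sign. All 9 log2 fold changes of Plekhg5-/- SOD1-G93A against Plekhg5-/- were positive (median 0.73), none was called by edgeR (over all genes, 0.00496% were called higher), and 2 had an unadjusted p under 0.05 (5.38% of all genes), Ccl3 at 1.83 ± 0.44 (adjusted p = 0.455) and Ccl2 at 1.21 ± 0.51 (adjusted p = 0.892). DESeq2 called 1 without a prior, Ccl3, and 0 with it, beside 0.206% and 0.196% of all genes. In 6 of 9 all double mutants lay above all Plekhg5-/- libraries, as in 7.26% of all genes. Ccl3 showed this most clearly, at 0.644, 0.422 and 0.379 CPM in Plekhg5-/- and 1.63 to 1.79 CPM with the transgene.

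Against WT, a comparison that shares the double mutant libraries with the previous one, the double mutants were again higher in all 9 (median log2 fold change 0.99), with 0 called by edgeR while 0.0298% of all genes were called higher. At an unadjusted p under 0.05 there were 5 (9.48% of all genes), and DESeq2 called 1 without a prior and 0 with it, beside 0.297% and 0.248% of all genes. In 4 of 9 (Ccl2, Ccl3, Ccl4 and Cxcl10) the groups did not overlap, as upwards in 9.84% of all genes. Ccl3 had the largest value at 2.36 ± 0.46 (adjusted p = 0.209), which passed when SOD1-G93A replicate 1 was left out of the fit (1 chemokine called). The values of Ccl6 (0.36 ± 0.33, adjusted p = 0.774) and Ccl12 (0.14 ± 0.47, adjusted p = 0.946) were about as large as or smaller than their errors, and without Plekhg5-/- SOD1-G93A replicate 1 the value of Ccl12 was -0.26.

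Whether the transgene's effect differed with Plekhg5 was tested by the interaction term. It was negative for all 9, from -2.51 ± 0.62 for Ccl4 (adjusted p = 0.338) to -0.66 ± 0.50 for Cxcl16 (adjusted p = 0.662). No chemokine passed with edgeR, nor did any of all genes (0%), and 6 of the 9 had an unadjusted p under 0.05 beside 9.05% of all genes. DESeq2 called Ccl3 and Ccl4 with a prior on fold changes and none without it, beside 0.611% and 0.537% of all genes.

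The levels moved with those of microglial genes. The summed level of the 13 microglial markers was 539 to 613 CPM in WT, 584 to 780 CPM in Plekhg5-/-, 961 to 1705 CPM in SOD1-G93A and 743 to 811 CPM in Plekhg5-/- SOD1-G93A. In SOD1-G93A against WT 11 of the 13 markers were higher (median log2 fold change 1.06), among them Csf1r, the receptor of the microglial growth factor CSF-1, at 0.89 (adjusted p = 0.0146) and Aif1, which encodes Iba1, at 1.41 (adjusted p = 0.0198). In double mutants against SOD1-G93A 0 of 13 were called and all 13 had negative values (median -0.53). In whole tissue more cells of a type and more RNA per cell cannot be told apart.

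Each chemokine was therefore also given relative to the 13 markers, as CPM per 100 CPM of their sum. Ccl3 was at 0.0870, 0.0525 and 0.0300 in WT, at 0.483, 0.371 and 0.275 in SOD1-G93A and at 0.221, 0.225 and 0.220 in Plekhg5-/- SOD1-G93A. On this scale 7 of 9 chemokines did not overlap between SOD1-G93A and WT, the same 7 that were called on CPM. Over all genes 0.719% lay above in this way, on a scale whose denominator was itself higher in SOD1-G93A. The log2 differences of these ratios were largest for Ccl3 (2.83), Ccl4 (2.18) and Cxcl10 (2.15), followed by Ccl2 (1.44), Ccl5 (1.28), Ccl9 (0.64) and Ccl6 (0.61), each at p = 0.1, the smallest that an exact two-sided permutation test of 3 against 3 can give. For Ccl12 and Cxcl16 the ratios overlapped, with differences of 0.13 each (exact permutation p = 0.8 and 0.9), and both turned negative without SOD1-G93A replicate 1 (-0.10 and -0.02) or WT replicate 3 (-0.16 and -0.13).

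Double mutants and SOD1-G93A did not overlap on this scale for 5 chemokines, beside 0.228% of all genes lying below. Here the denominator was itself lower in the double mutants, which raises the ratio of an unchanged gene and makes this share small. The log2 differences were -1.26 for Ccl4, -0.73 for Ccl3, -0.67 for Ccl5, -0.65 for Ccl6 and -0.37 for Ccl9, again each at the smallest exact permutation p of 0.1. Ratios of Ccl2 (-0.72, p = 0.2), Ccl12 (-0.42, p = 0.4), Cxcl10 (-0.47, p = 0.5) and Cxcl16 (-0.01, p = 1.0) overlapped in the same exact permutation test. Without SOD1-G93A replicate 1 the difference was 0.03 for Cxcl10, 0.14 for Cxcl16 and -0.19 for Ccl12. Ccl4 was at 0.228, 0.161 and 0.154 CPM per 100 marker CPM in SOD1-G93A and at 0.0798, 0.0738 and 0.0697 in the double mutants.

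**Figure D4:**
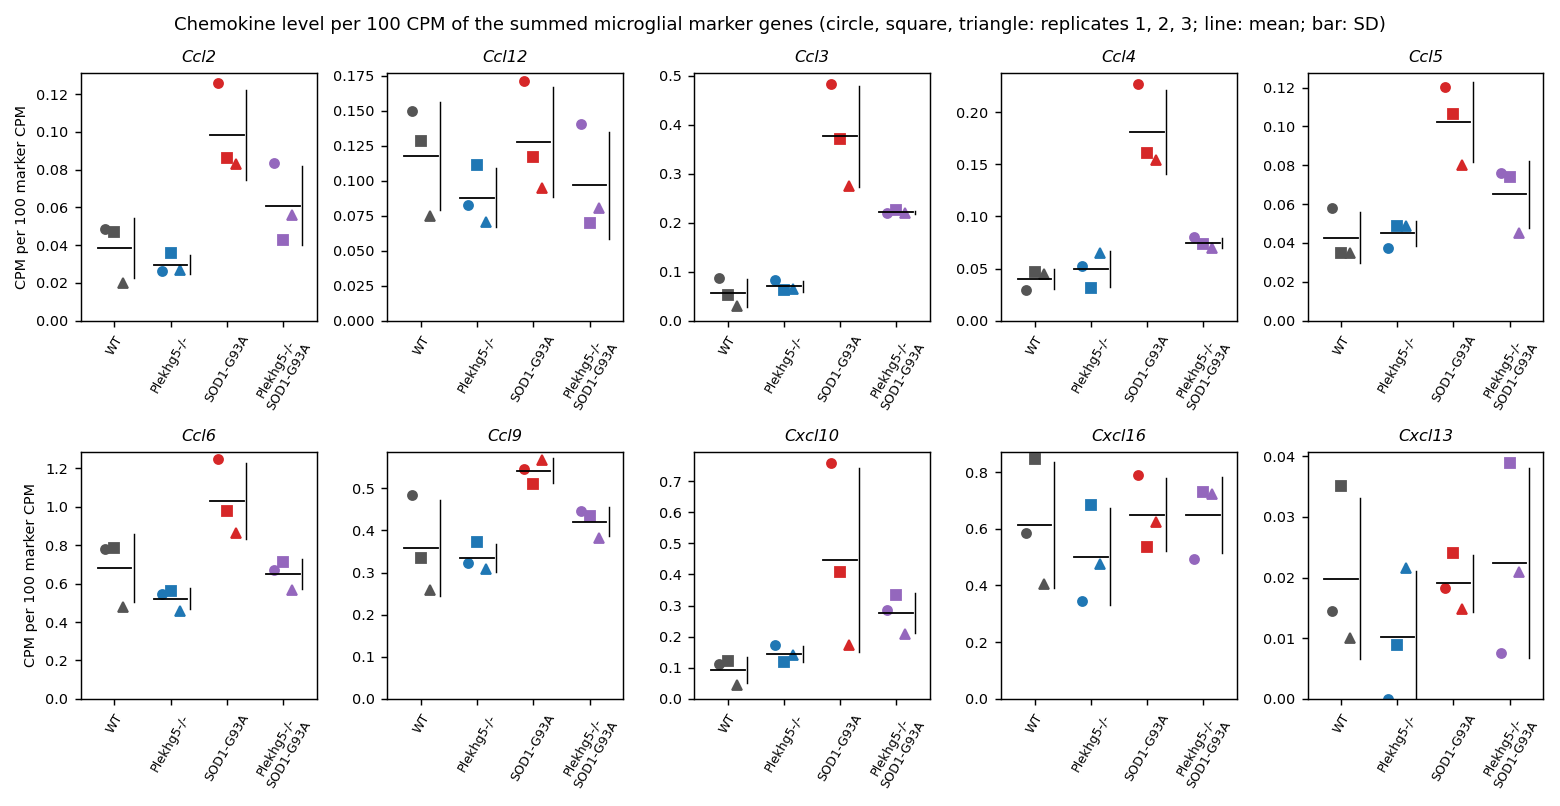
Chemokine CPM per 100 CPM of 13 summed microglial markers (vertical axis, linear, from 0, scaled per gene) in the 4 genotypes (horizontal axis). Each symbol is 1 library, the line the mean and the bar the SD of 3 libraries. Ccl3 and Ccl4 keep separate SOD1-G93A libraries on this scale (Ccl3, 0.275 to 0.483 against 0.0300 to 0.0870 in WT), whereas Ccl12 and Cxcl16 overlap between all genotypes.

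Markers of blood leukocytes varied within genotypes. The summed level of 7 neutrophil markers, led by S100a9 and S100a8, was 12.9 to 62.6 CPM in WT, 27.3 to 72.7 CPM in Plekhg5-/-, 39.8 to 135 CPM in SOD1-G93A and 20.7 to 232 CPM in Plekhg5-/- SOD1-G93A, with 0 of 7 called in SOD1-G93A against WT. The 5 monocyte markers, Ccr2 among them, summed to 10.4 to 15.4 CPM in WT and 10.9 to 20.8 CPM in SOD1-G93A, and their highest sum, 41.7 CPM, was in Plekhg5-/- SOD1-G93A replicate 1. T and NK cell markers summed to 1.29 to 2.31 CPM in WT, 3.30 to 3.84 CPM in SOD1-G93A and 2.34 to 7.65 CPM in the double mutants, and Cd3e, Cd3d and Cd3g were in too few libraries at a sufficient count to be tested. The 5 B cell markers summed to 1.22 to 2.77 CPM in WT and 2.43 to 2.97 CPM in Plekhg5-/-. Their sums were 3.02 to 6.49 CPM in SOD1-G93A and 3.87 to 5.07 CPM in the double mutants. Both the B cell sums and the T and NK cell sums did not overlap between WT and SOD1-G93A, and 11.6% of all single genes separated upwards in this way. Of the 5 B cell markers 1 was called, Cd79b (log2 fold change 1.84, adjusted p = 0.0366), and of the 4 tested T and NK cell markers 0. Astrocyte markers (7 genes) summed to 5080 to 5165 CPM in WT, 5278 to 5989 CPM in Plekhg5-/-, 6293 to 9741 CPM in SOD1-G93A and 6111 to 6358 CPM in the double mutants. In SOD1-G93A against WT all 7 had positive values and 2 were called. Most of the higher sum was Gfap (mean 1527 CPM in WT and 3592 CPM in SOD1-G93A). The log2 fold changes of Slc1a2, Slc1a3 and Gja1 were 0.01, 0.11 and 0.10. The part of these cells in the chemokine levels was not tested.

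Of 23 chemokine receptor genes 12 could be tested. Among those higher in SOD1-G93A than in WT, Cxcr4, the receptor of Cxcl12, changed by 1.28 ± 0.26 (adjusted p = 0.0266), and Cx3cr1, the fractalkine receptor of microglia and itself one of the 13 microglial markers, by 1.13 ± 0.19 (adjusted p = 0.0155). Neither Ccr1 (0.25 ± 0.53, adjusted p = 0.854) nor Ccr2 (-0.13 ± 0.58, adjusted p = 0.941) differed detectably, and Ccr2 was at 2.16, 1.54 and 1.61 CPM in WT against 1.82, 0.941 and 2.11 CPM in SOD1-G93A. The lymphocyte receptors Cxcr3, Cxcr5 and Cxcr6, which bind Cxcl10, Cxcl13 and Cxcl16, had means of 0.0330 to 0.178 CPM in all genotypes and were too low to test.

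Of 28 other chemokine ligands 15 were tested. In SOD1-G93A against WT, 50.3% of all genes had negative log2 fold changes, while 11 of the 15 ligands had positive ones. One, Ccl28, a mucosal CC ligand, passed the adjusted test and was higher in SOD1-G93A (log2 fold change 1.41 ± 0.33, adjusted p = 0.0466; 0.609, 0.913 and 1.29 CPM against 3.84, 2.00 and 1.59 CPM). Ccl28 averaged 2.79 CPM in Plekhg5-/- and 2.73 CPM in the double mutants. Cx3cl1, the neuronal fractalkine, had the highest level of the tested ligands, with 231 ± 11.2 CPM in WT and 210 ± 12.1 CPM in SOD1-G93A (log2 fold change -0.14 ± 0.06, adjusted p = 0.274). Cxcl9, which like Cxcl10 is an interferon-gamma-induced ligand of Cxcr3, had a log2 fold change of 3.00 ± 0.85 at a mean of only 0.0502 CPM in WT (adjusted p = 0.0855).

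Downstream of the receptors, 6 of 23 signalling genes were higher in SOD1-G93A than in WT. They were Was (log2 fold change 1.08, adjusted p = 0.0198), which drives actin branching, the exchange factors Vav1 (1.18, adjusted p = 0.0224) and Dock2 (1.38, adjusted p = 0.0299), the GTPase Rac2 (1.37, adjusted p = 0.0466), the kinase subunit Pik3cg (0.84, adjusted p = 0.0469) and Prkcd, protein kinase C delta (0.39, adjusted p = 0.0490). The median over the 23 was 0.12, and the broadly expressed Rac1, Cdc42, Gnb1, Arrb1 and Arrb2 had log2 fold changes between -0.03 and 0.14.

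Of 16 inducers of chemokine transcription 13 were tested and 1 was higher, Irf8, a transcription factor of the myeloid lineage, at 5.92, 5.32 and 4.47 CPM in WT and 25.7, 12.0 and 11.4 CPM in SOD1-G93A (log2 fold change 1.64 ± 0.28, adjusted p = 0.0165). Tnf (2.39 ± 0.74, adjusted p = 0.106) and the interferon regulatory factors Irf7 (1.83 ± 0.48, adjusted p = 0.0732) and Irf1 (0.59 ± 0.17, adjusted p = 0.0847) did not pass, and Nfkb1, the p50 subunit of NF-kappa-B, was at 0.10 ± 0.09. Of 9 proteases that cleave or shed chemokines 8 were tested, and Mmp12, the macrophage elastase, was the only one called. It was at 0.0870, 0.157 and 0.0306 CPM in WT and 4.72, 2.57 and 1.74 CPM in SOD1-G93A (log2 fold change 4.99 ± 0.49, adjusted p = 0.00184), and was also higher in double mutants than in WT (adjusted p = 0.00965). Adam10 and Adam17, which shed Cxcl16, had log2 fold changes of 0.01 and 0.13. None of the genes in these 5 lists was called in double mutants against SOD1-G93A.

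Across the 12 libraries the members resembled each other, with pairwise Pearson correlations of log2 CPM between 0.743 (Ccl4 with Ccl12) and 0.969 (Ccl5 with Ccl9) among the 9 tested. These values describe libraries that share genotype, microglial marker level and the high SOD1-G93A replicate 1. Outside the list, the 3 genes with the highest correlation to each member are named here with their r. Ccl2 was nearest to Abi3, Fcrls and Irf8 (r from 0.969 to 0.971), Ccl3 to Rgs1, Capg and Bcl2a1b (0.976 to 0.982), Ccl4 to Tlr2, Cd22 and Hvcn1 (0.971 to 0.974) and Ccl5 to Itgb2, Slc15a3 and Tyrobp (0.976 to 0.979).

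For Ccl6 the nearest genes were Tmem273, Itgb5 and P2ry6 (r from 0.974 to 0.991), for Cxcl10 Loxl2, Frrs1 and Itgax (0.967 to 0.992), and for Cxcl16 Parp10, Slc7a7 and Ggta1 (0.951 to 0.956). Ccl9 was nearest to 3 pseudogene loci, Ftl2-ps and Ftl1-ps1 of the ferritin light chain and Gm15590 (0.981 to 0.984), whose counts are uncertain because reads can be shared with a parent gene. Ccl12 had Gm29718, Plin2 and Snx20 (0.936 to 0.959). Cxcl13, with at most 10 counts in a library, had the weakest neighbours, Itpripl2, Nfkb1 and Col4a6 (0.855 to 0.883), and little can be read from them.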

How the data were processed

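Total RNA of spinal cord was enriched for poly-A RNA and sequenced from one end in stranded libraries by the authors, who trimmed reads with cutadapt 2.4, aligned them with STAR 2.7.2b to GRCm38.p6 with human SOD1 added, and counted them with featureCounts 1.6.4 by strand, sharing multi-mapping reads in fractions. The deposited values are therefore expected counts (17.3% to 18.1% of values per library were not whole), and they were rounded here. All 12 libraries entered one edgeR 4.0.16 quasi-likelihood fit (robust, TMM, filterByExpr, which kept 20155 genes) with Benjamini-Hochberg adjustment at 0.05. Alternatives were DESeq2 1.42.0 with and without a prior, other filters and size factors, 2-genotype fits, covariates, and each library left out. Log2 CPM for correlations used a prior count of 2. Chemokines, gene lists and markers were chosen with earlier results of these data known. Named genes are the 10 chemokines in every comparison, list genes that passed (at most 10 per list), receptors of the members (a result for one list gene is not reported here) and the 3 genes nearest to each member, and other genes named with values were chosen after their values were seen. Replicate numbers come from the labels, which do not say whether mice of one number were linked. Intervals of counting error are not given. With 3 mice per genotype the spread between mice is itself poorly known, and for chemokines with few counts counting error can be as large as that spread. The edgeR p-values rest on a spread estimated from all 12 libraries together, with information shared across genes. The SE given with a log2 fold change was derived from the same test. It is the size of the log2 fold change divided by the square root of the test's F statistic. Cxcl13 was left out of the tests by the filter.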

Additional observations from a re-analysis of the deposited data

Results flagged for a closer look

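For 3 chemokines, every Plekhg5-/- library without the transgene lay above the WT mean, while every Plekhg5-/- library with the transgene lay below the SOD1-G93A mean. The differences of log2 CPM means were 0.54 without and -1.30 with the transgene for Ccl3, 0.26 and -1.18 for Ccl5, and 0.87 and -1.06 for Cxcl10. For each of the 3, 2 of the 3 SOD1-G93A libraries also lay below that mean, replicate 1 being the one above it. Without the transgene, Plekhg5-/- and WT libraries overlapped for Ccl3 and Ccl5. There WT replicate 1 was at 0.522 CPM for Ccl3 (Plekhg5-/- 0.379 to 0.644 CPM) and at 0.348 CPM for Ccl5 (Plekhg5-/- 0.284 to 0.331 CPM). The pattern was not tested as such, and how many of all genes show it was not counted. The interaction term of the fit across all genes did not pass for any of the 3, at -2.03 ± 0.64 for Ccl3 (adjusted p = 0.407), -1.61 ± 0.59 for Ccl5 (adjusted p = 0.462) and -2.42 ± 0.95 for Cxcl10 (adjusted p = 0.492).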

How the results depend on the processing

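For SOD1-G93A against WT, none of the 175 alternative fold changes of the 9 tested chemokines changed sign. The count of 7 called was 0 with the 2 genotypes only, 2 of the 4 still tested when every library had to hold at least 10 counts, 6 without a filter, 8 with DESeq2, and 0 to 8 when 1 library was left out. The count over all genes was 498, and 2 to 771 with 1 library left out. Why the calls fall without WT replicate 1 or 2 was not tested. For Plekhg5-/- SOD1-G93A against SOD1-G93A, the count of 0 became 1 without a filter, 3 with DESeq2 without a prior and 6 with it, and stayed 0 with any library left out. Over all genes, DESeq2 called 115 with a prior against 7. Against Plekhg5-/-, double mutants gave 1 with the 2 genotypes only and 1 with DESeq2 without a prior, and against WT 2 and 1 in these fits, and 0 to 1 with a library left out. The interaction gave 2 with DESeq2 with a prior and 0 otherwise.

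The replicate numbers were not treated as pairs of mice. Of 18 same-numbered pairs, 5 had a correlation over 0.1 (-0.16 to 0.32), and the 36 pairs with different numbers ran from -0.33 to 0.28. Of the 12 libraries, 6 correlated best with their own number, so these values neither show nor exclude a pairing. With the replicate number as a block, 8 chemokines were called in SOD1-G93A against WT (Ccl12 in addition, with 631 genes in all against 498), 1 in double mutants against WT (15 genes in all against 10), and the other counts were unchanged at 0.

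Fold changes near 0 changed sign under some alternatives. In Plekhg5-/- against WT, leaving out 1 library gave ranges of -0.43 to 0.11 for Ccl2, -0.32 to 0.023 for Ccl6, -0.049 to 0.43 for Ccl9, -0.40 to 0.071 for Ccl12 and -0.36 to 0.17 for Cxcl16, and Ccl2 was 0.062 with the Y-linked covariate. Ccl12 ranged from -0.074 to 0.51 in double mutants against Plekhg5-/- and from -0.26 to 0.39 in double mutants against WT. The ratios to 5 instead of 13 microglial markers left 6 of 7 and 5 of 5 chemokines without overlap. Ccl2, Ccl4 and Ccl5 rest on 4 to 12 counts per WT library, and Cxcl13 on 0 to 10 counts in any library, which limits what can be detected.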
